A study of Mus musculus with 6 samples.

Results

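The genes described here are 54 genes that copy DNA in S phase, among 45616 genes and transcripts measured on microarrays of newborn mouse islet cells. They were chosen by their known role in replication, with earlier results of these data known, and all 54 were found on the array through the RefSeq transcript of at least 1 probe. They cover the MCM helicase, the factors that load and start it, the sliding clamp *Pcna* and its loaders, the replicative polymerases, nucleotide supply, Okazaki fragment processing, single-strand binding, chromatin assembly, fork protection and the E2F factors that switch many of these genes on.

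The study asked how islet cells that have expressed *Wnt4*, a secreted WNT ligand, differ from those that have not. Pups carried a *Wnt4eGFPCre* allele, which drives Cre from the *Wnt4* locus, and the *mTmG* reporter, which changes from membrane Tomato to membrane GFP (mGFP) for good once Cre has acted, so the marker reports past and present *Wnt4* expression. The series describes a sort of *Wnt4eGFPCre;mTmG* islets at postnatal day 1 (P1), in which mGFP+ cells are called *Wnt4*hi and mGFP- cells *Wnt4*low. A legend of the study names the low population as negative for the Cre transgene, and which of these holds was not settled here. Each array received amplified RNA of 1 pool of 3 or 4 pups, and the labels number them 2, 3 and 4 for *Wnt4*hi and 1, 3 and 4 for *Wnt4*low. The sort was for mGFP and not for a cell type.

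Replication is prepared in G1, when the origin recognition complex with CDC6 and CDT1 loads MCM rings onto DNA, and starts in S phase, when CDC45 and GINS join MCM to form the active helicase. Polymerase alpha with primase starts each strand, RFC places the PCNA clamp, and polymerases epsilon and delta extend the leading and the lagging strand. Transcripts of many of these proteins peak around the G1 to S transition, and their level is often read as a sign of dividing cells. Mouse beta cells divide frequently around birth and rarely later.

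Between 70.5% and 79.5% of spots were well above background on each array, and 0 were saturated. *Wnt4* itself had normalized log2 intensities of 11.20, 10.53 and 10.77 in *Wnt4*hi and 9.85, 10.11 and 9.31 in *Wnt4*low. The populations did not overlap and the difference had the direction of the labels (log2 fold change 1.08, limma's adjusted p = 0.212). Of all features 9.56% likewise did not overlap in the higher direction, so this is not a test of the sort. Values below are normalized log2 intensities, a fold change is *Wnt4*hi minus *Wnt4*low on the log2 scale with the standard error (SE) of limma, and adjusted p-values are Benjamini-Hochberg values over all 45616 features. A threshold of 0.05 was applied to unadjusted and to adjusted p-values. An exact two-sided permutation test of 3 against 3 arrays cannot go below 0.1.

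DNA replication genes tended to lower values in *Wnt4*hi cells. Of the 54, 36 were lower and 18 higher, or 66.7% lower against 36.5% of all features and 39.7% of the 22908 features with a RefSeq symbol, as all 54 have, and 8 were past the unadjusted threshold in the lower direction: *Mcm2*, *Mcm3*, *Mcm6*, *Pcna*, *Pola2*, *Pole*, *Pole2* and *Rrm1*. This is 14.8% of the genes, against 5.53% of all features and 7.80% of those with a RefSeq symbol. In the higher direction 0 of 54 were past it, against 5.02% of all features. After adjustment 0 passed in either direction, against 0.403% of all features lower and 0.0351% higher, and the smallest adjusted p was 0.132, for *Rrm1*. The median log2 fold change was −0.32, and −0.26 with the 2 genes that have only a bound set to it, while the median of all features was 0.07. The median was −0.15 over the 46 genes well above background on all 6 arrays, of which 28 were lower and 18 higher. Of these 46, 10.9% were past the unadjusted threshold, lower, against 7.88% of symbols well above background on 6 arrays. Arrays did not overlap, lower, for 8.70% against 8.50%. The filter asks for signal on every *Wnt4*hi array, and the 8 genes it left out were all lower there, so it is tied to the difference itself. A measured fold change below −0.5 was found for 18 genes, 2 of which have only a bound, smaller than that in size, and one above 0.5 was found for 0. Over all features 9.71% of the measured fold changes were below −0.5, and 13.1% of those with a symbol. Arrays did not overlap between populations for 7 genes that were lower, or 13.0%, against 6.44% of all features and 8.53% of those with a symbol, and for 1 that was higher (*Pold2*), against 9.56%. Under median centring, cyclic loess and scaling to the 75th percentile, 38, 39 and 41 genes were lower. Fewer dividing cells and less of each transcript per cell cannot be told apart in such bulk RNA.

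**Figure D1:**
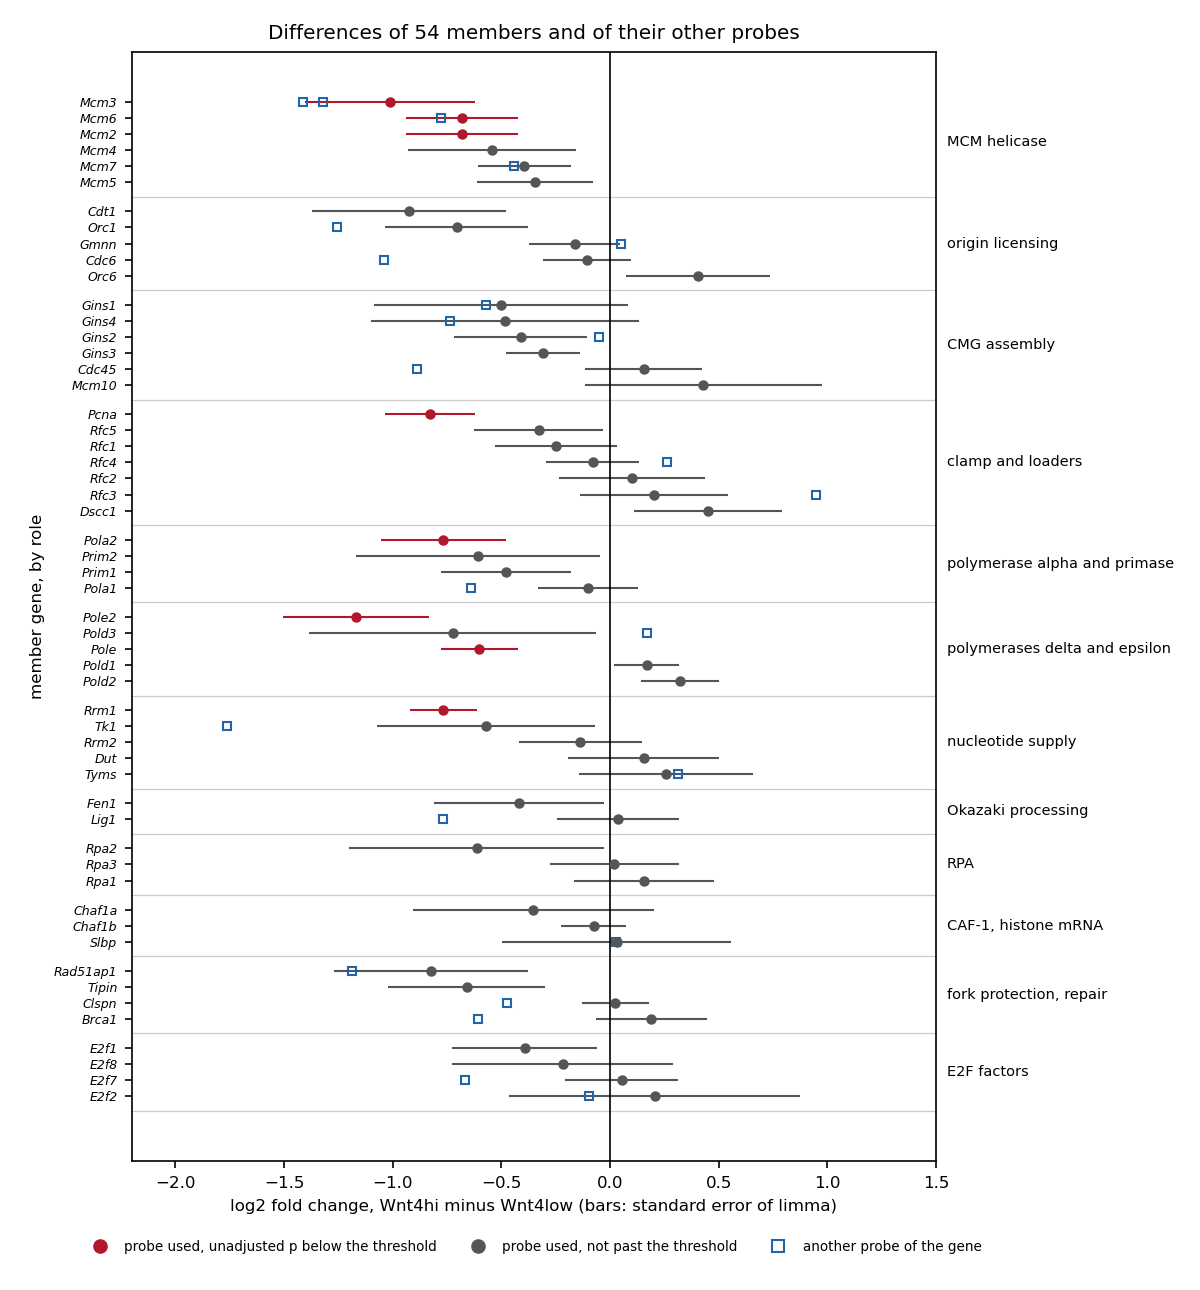
Log2 fold change of each of the 54 genes, *Wnt4*hi minus *Wnt4*low (x axis), by role (y axis), with limma's standard error as bars, the 8 genes past the unadjusted threshold in red and other probes of the same gene as open squares. The 6 MCM genes and the 4 genes of polymerase alpha and primase all lie left of 0, and the lowest and highest genes well above background on all arrays are *Mcm3* (−1.01) and *Dscc1* (0.45). *Pole2* (−1.17) and *Rad51ap1* (−0.82), well above background on 0 *Wnt4*hi arrays, are drawn at their measured values but have only a bound, as have 5 of the open squares.

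The count rested in part on single arrays. It was 13, or 24.1%, without *Wnt4*low replicate 3, against 5.72% of all features in that fit. It was 4, or 7.41%, without *Wnt4*low replicate 1, against 5.41%, and 5, or 9.26%, without *Wnt4*low replicate 4, against 4.93%. Leaving out a *Wnt4*hi array gave 6 to 9, against 4.61% to 5.28% of all features. The share among features with a RefSeq symbol, 7.80% with all 6 arrays, was not counted in these fits. A count of 4, or 7.41%, can therefore not be called above it. The median of −0.32 also moved, to −0.18 without *Wnt4*hi replicate 2 and −0.20 without *Wnt4*low replicate 4, and stayed between −0.34 and −0.23 in the other 4 fits. *Pcna*, *Pole*, *Pole2* and *Rrm1* passed the unadjusted threshold whichever array was left out. *Mcm2*, *Mcm3*, *Mcm6* and *Pola2* each passed in 2 of these 6 fits and kept their sign in all 6.

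Promoters were read because many of these genes are known E2F targets. RefSeq promoters, of 250 bases before to 50 bases after the transcription start on GRCm38.p6, were given for 44 of the 54 genes. They were searched on both strands for 4 E2F-type words, TTTCGCGC, TTTGGCGC, TTTCCCGC and TTTGGCGG, of which neighbouring matches can overlap. At least 1 word was present in 20 of 44 genes, or 45.5%, against 2.7% of 27025 genes with a promoter in the same table. By role the words were found in 4 of 5 MCM genes, 3 of 4 genes each of origin licensing and of polymerases delta and epsilon, and 0 of 5 genes of nucleotide supply. Of the genes past the unadjusted threshold 4 of 7 with a promoter held one, and of the others 16 of 37, a difference that was not tested.

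Other cell cycle words had another distribution. The NF-Y word CCAAT was present in 65.9% of the genes against 41.1% of all. The word TTTGAA of the cell cycle homology region (CHR), known from promoters of mitotic genes, was present in 15.9% against 20.2% of all. For 26 genes of mitosis and the spindle the order was the reverse: of 23 with a promoter, 16 or 69.6% held TTTGAA, and 1 or 4.35% held an E2F-type word. In a list of 54 further replication genes, 18 of 43 with a promoter, or 41.9%, held an E2F-type word. A match is a description of the letters and not a measured binding site.

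**Figure D2:**
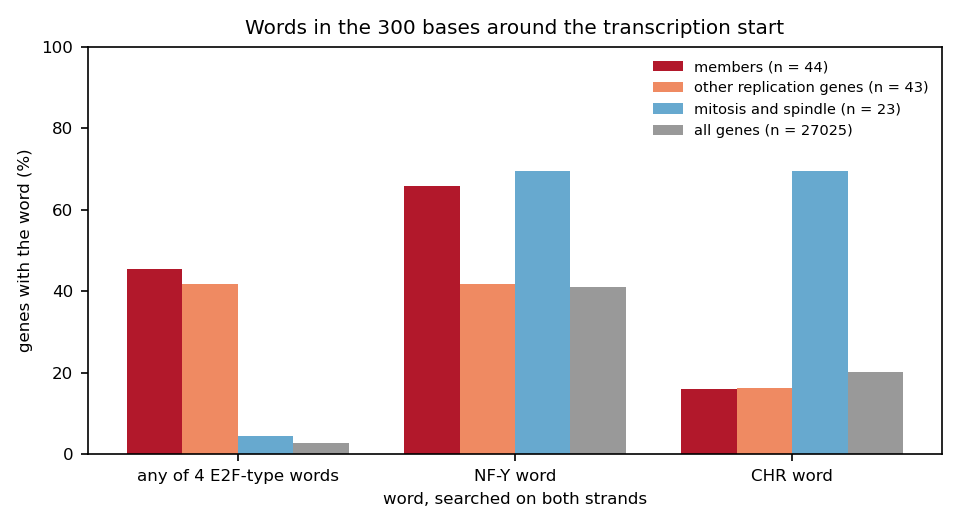
Share of genes (y axis, percent) whose promoter window holds any of the 4 E2F-type words, the NF-Y word or the CHR word (x axis), for the 54 replication genes, further replication genes, mitotic genes and all genes with a promoter. The E2F-type words stand at 45.5% in the replication genes and 4.35% in the mitotic genes, and the CHR word at 15.9% and 69.6%.

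The promoters shown are those of the 3 genes with the smallest p that hold an E2F-type word between 170 bases before and 30 bases after the start, all on the minus strand of GRCm38.p6 and written 5′ to 3′ along the transcript, with the E2F-type words in capitals. They are *Pole2* at chr12:69228161-69228360, *Mcm6* at chr1:128359676-128359875 and *Mcm3* at chr1:20820283-20820482. *Rrm1* and *Pcna*, which had the smallest p of all, held none of the 4 words, the word of *Pola2* lies further downstream, and no promoter was listed for *Pole*.
Pole2: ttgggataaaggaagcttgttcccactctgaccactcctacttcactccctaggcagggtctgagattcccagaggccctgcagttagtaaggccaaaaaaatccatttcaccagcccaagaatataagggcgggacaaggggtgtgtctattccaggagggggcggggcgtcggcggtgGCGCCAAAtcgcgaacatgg
Mcm6: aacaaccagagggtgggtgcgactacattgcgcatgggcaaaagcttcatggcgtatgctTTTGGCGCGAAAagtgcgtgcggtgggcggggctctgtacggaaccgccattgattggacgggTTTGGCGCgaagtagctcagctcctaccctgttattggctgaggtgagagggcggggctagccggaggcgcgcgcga
Mcm3: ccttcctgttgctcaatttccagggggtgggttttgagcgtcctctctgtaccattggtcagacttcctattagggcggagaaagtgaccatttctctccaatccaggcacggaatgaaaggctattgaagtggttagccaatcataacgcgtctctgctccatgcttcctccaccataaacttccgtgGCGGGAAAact
*Mcm6* holds 3 words, of which 2 overlap on opposite strands from −110 to −99 and the other lies at −47 to −40, counted from 1 at the start and −1 before it. In *Pole2* the word runs on the opposite strand at 11 to 18 and in *Mcm3* at 20 to 27. A further word of *Mcm3* at 39 to 46 lies beyond the stretch shown.

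All 6 subunits of the MCM ring, the motor that unwinds DNA, were lower in *Wnt4*hi cells, with fold changes from −1.01 to −0.35 and a median of −0.61. *Mcm3*, *Mcm6* and *Mcm2* were past the unadjusted threshold, *Mcm4*, *Mcm5* and *Mcm7* were not, and 0 of 6 passed after adjustment. *Mcm6* stood at 12.08, 12.67 and 12.31 in *Wnt4*hi and at 12.95, 12.69 and 13.47 in *Wnt4*low. The populations were apart, but the highest *Wnt4*hi array (replicate 3) and the lowest *Wnt4*low array (also replicate 3) lay next to each other. The fold change was −0.68 (SE 0.26, adjusted p = 0.423), a 1.60-fold lower intensity. *Mcm2* stood at 7.65, 7.59 and 7.13 against 8.27, 7.67 and 8.47, where again only the narrow step between a *Wnt4*hi array and *Wnt4*low replicate 3 separated the populations. It differed by −0.68 (SE 0.26, adjusted p = 0.430) and was well above background on 2 of 3 *Wnt4*hi arrays.

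*Mcm3* had the largest MCM difference, −1.01 (SE 0.39, adjusted p = 0.436), or 2.02-fold. Its values were 9.78, 10.98 and 10.66 in *Wnt4*hi and 11.66, 10.92 and 11.88 in *Wnt4*low. *Wnt4*low replicates 1 and 4 were above all *Wnt4*hi arrays, and replicate 3 lay among them. Its other probes differed by −1.32 and −1.41, in the same direction. *Mcm4*, *Mcm5* and *Mcm7* overlapped, with fold changes of −0.54 (95% interval −1.48 to 0.40), −0.35 (SE 0.27) and −0.39 (SE 0.21).

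**Figure D3:**
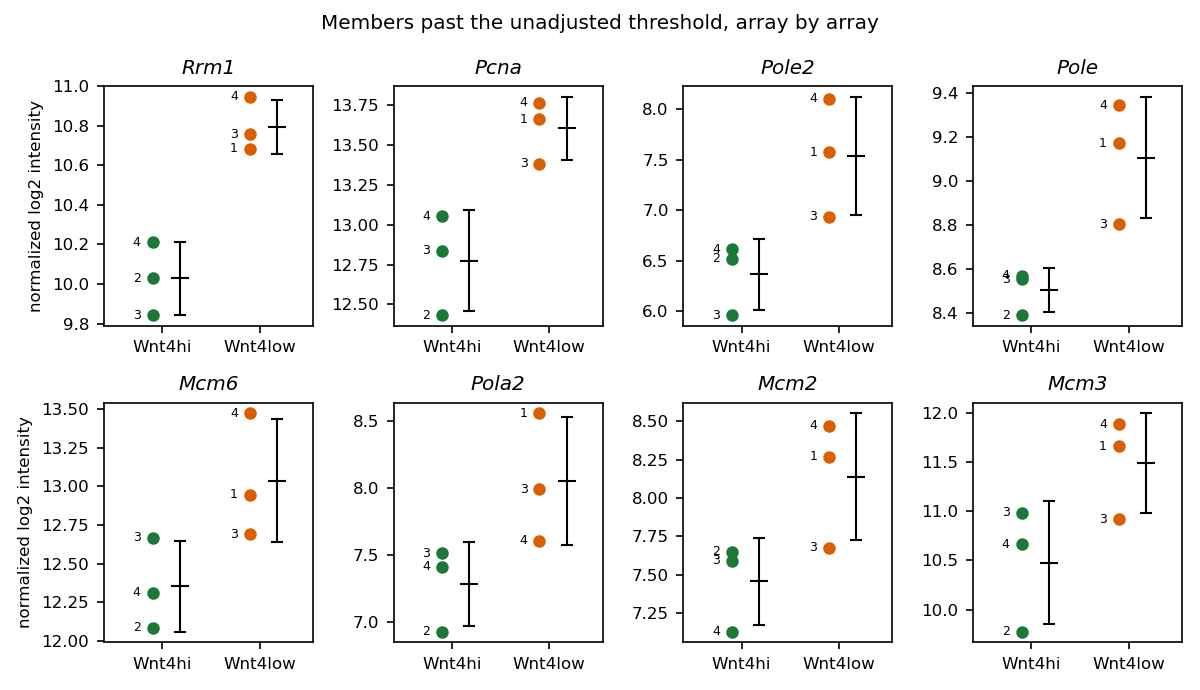
Normalized log2 intensity (y axis, own range in each panel) of the 8 genes past the unadjusted threshold on each array, numbered by replicate, with the mean and standard deviation of the 3 arrays of a population as a bar beside the points. *Wnt4*hi and *Wnt4*low points are apart in all panels but that of *Mcm3*, and *Wnt4*low replicate 3 is the lowest *Wnt4*low point in 6 of the 8.

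The factors that license origins did not pass the threshold on the probes used. Among *Orc1*, *Orc6*, *Cdc6*, *Cdt1* and *Gmnn*, 4 were lower and 1 higher, with a median of −0.16. *Orc1*, the largest subunit of the origin recognition complex, had the smallest p, with 7.81, 6.94 and 7.17 in *Wnt4*hi and 8.33, 7.46 and 8.25 in *Wnt4*low. *Wnt4*low replicates 1 and 4 were above all *Wnt4*hi arrays and replicate 3 was not, and the gene was well above background on 1 of 3 *Wnt4*hi and 2 of 3 *Wnt4*low arrays. Its fold change was −0.71 (SE 0.33, adjusted p = 0.543). On its other probe, past the unadjusted threshold, *Orc1* was at least 1.41-fold lower. That probe was well above background on 0 of 3 *Wnt4*hi and 2 of 3 *Wnt4*low arrays, and the populations overlapped. *Cdt1*, which brings MCM to origins, differed by −0.93 (SE 0.45, adjusted p = 0.560), whereas *Gmnn*, which encodes the CDT1 inhibitor geminin, differed by −0.16 (95% interval −0.67 to 0.35). *Orc6* was higher, by 0.41 (−0.40 to 1.21). *Cdc6*, the MCM loader, differed by −0.11 on its brighter probe and was at least 1.13-fold lower on another, well above background on 0 of 3 *Wnt4*hi and 2 of 3 *Wnt4*low arrays. This other probe was past the unadjusted threshold.

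Among the genes that turn the loaded ring into the CMG helicase, *Gins4*, *Mcm10* and *Gins1* varied most over *Wnt4*hi arrays, with SDs of 1.15, 1.14 and 1.03, and *Gins3* least, with 0.16. *Gins1*, *Gins2*, *Gins3* and *Gins4* were lower, *Cdc45* and *Mcm10* were higher, 0 of 6 were past the threshold and the median was −0.36. *Gins3* had the smallest p, with 12.34, 12.50 and 12.65 in *Wnt4*hi and 12.58, 13.03 and 12.80 in *Wnt4*low. *Wnt4*low replicate 1 lay below *Wnt4*hi replicate 4, and the difference was −0.31 (SE 0.17, adjusted p = 0.634). *Mcm10*, at 0.43, owed its sign to *Wnt4*hi replicate 4, which stood at 9.72 against 7.73 to 8.09 on the other 5 arrays, and the lowest fold change with an array left out was −0.23. *Cdc45* differed by 0.15 on its brighter probe and by −0.89 on the other, with arrays that did not overlap on that probe.

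*Pcna*, the clamp that tethers polymerases to DNA and a common marker of S phase, stood at 12.43, 12.84 and 13.05 in *Wnt4*hi and 13.66, 13.38 and 13.77 in *Wnt4*low. Every *Wnt4*low array exceeded every *Wnt4*hi array. The difference was −0.83 (SE 0.21, adjusted p = 0.207), or 1.78-fold. Of the RFC complex that loads the clamp, *Rfc1*, *Rfc4* and *Rfc5* were lower and *Rfc2* and *Rfc3* higher, from −0.33 to 0.20, and 0 of 5 were past the threshold. *Rfc3* was the gene whose other probe was past it in the higher direction (0.95). *Dscc1*, part of an alternative clamp loader, had the highest fold change of the 54, 0.45 (SE 0.34, adjusted p = 0.749). It stood at 8.64, 7.50 and 8.57 in *Wnt4*hi and 7.60, 7.67 and 8.08 in *Wnt4*low, where *Wnt4*hi replicate 3 was the lowest of all arrays.

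The 4 genes of polymerase alpha and primase, which lay down the RNA-DNA primer, were all lower, with a median of −0.54, and 1 was past the unadjusted threshold. This was *Pola2*, the regulatory subunit, at 6.93, 7.51 and 7.42 in *Wnt4*hi and 8.56, 7.99 and 7.61 in *Wnt4*low. The populations did not overlap, with *Wnt4*low replicate 4 close to *Wnt4*hi replicate 3. The difference was −0.77 (SE 0.29, adjusted p = 0.423), or 1.70-fold, and *Pola2* was well above background on 1 of 3 *Wnt4*hi arrays. *Prim1* and *Prim2*, the primase subunits, differed by −0.48 and −0.61, and *Pola1*, the catalytic subunit, by −0.10 (95% interval −0.66 to 0.46).

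Genes of the leading-strand polymerase epsilon were lower, and those of the lagging-strand polymerase delta lay on both sides of 0. *Pole*, the catalytic subunit of epsilon, stood at 8.39, 8.55 and 8.57 in *Wnt4*hi and 9.17, 8.80 and 9.35 in *Wnt4*low. *Wnt4*hi arrays were close together and below all *Wnt4*low arrays, with a difference of −0.60 (SE 0.18, adjusted p = 0.287), or 1.52-fold. *Pole2*, its second subunit, has only a bound in *Wnt4*hi. Its values were 6.52, 5.96 and 6.62 in *Wnt4*hi and 7.58, 6.94 and 8.10 in *Wnt4*low. The arrays did not overlap, but *Pole2* was well above background on 0 of 3 *Wnt4*hi and 2 of 3 *Wnt4*low arrays. It was therefore at least 1.15-fold lower (adjusted p = 0.276 in the fit of the measured values), a bound against the lowest signal well above background on each array.

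For polymerase delta, *Pold1* and *Pold2* were higher, by 0.17 (95% interval −0.20 to 0.53) and 0.32 (−0.12 to 0.76). *Pold2* stood at 9.77, 9.72 and 9.65 in *Wnt4*hi and 9.49, 9.63 and 9.06 in *Wnt4*low, without overlap but with a step smaller than the spread of the *Wnt4*low arrays. *Pold3* differed by −0.72 (SE 0.66), with *Wnt4*hi values from 7.88 to 10.67, the widest of the 54, and its other probe differed by 0.17. Over the 5 polymerase delta and epsilon genes 2 were past the threshold, and the median was −0.60, or −0.21 with *Pole2* at its bound.

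*Rrm1*, the large subunit of ribonucleotide reductase, which makes deoxyribonucleotides, had the smallest p of all 54. It stood at 10.03, 9.84 and 10.21 in *Wnt4*hi and 10.68, 10.76 and 10.95 in *Wnt4*low. The populations were well apart, with the step between them larger than the range of either. The difference was −0.77 (SE 0.16, adjusted p = 0.132), or 1.70-fold. *Rrm2*, the small subunit of the same enzyme whose transcript is known to peak in S phase, differed by −0.14 (95% interval −0.82 to 0.55). Thymidylate synthase *Tyms* and the dUTPase *Dut* were at 0.26 and 0.15, and thymidine kinase *Tk1* at −0.57, with −1.76 on its other probe. The median of the 5 genes was −0.14, and 1 was past the threshold.

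The smaller groups held 0 genes past the threshold. In Okazaki fragment processing, the flap nuclease *Fen1* stood at 9.40, 9.72 and 10.34 in *Wnt4*hi and 10.90, 9.60 and 10.22 in *Wnt4*low, with overlap and a difference of −0.42 (SE 0.39, adjusted p = 0.800). The ligase *Lig1* was at 0.04 on its brighter probe and −0.77 on the other. Among the RPA genes, whose products coat single-stranded DNA, the median was 0.02. *Rpa2* had the smallest p, with 7.83, 9.14 and 9.74 against 9.31, 8.89 and 10.35, and the populations overlapped (−0.61, SE 0.59, adjusted p = 0.807).

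Of the chromatin assembly and histone mRNA genes, *Chaf1a* stood at 7.52, 7.76 and 9.36 in *Wnt4*hi and 8.18, 9.26 and 8.25 in *Wnt4*low, and the arrays overlapped (−0.35, SE 0.56, adjusted p = 0.891). *Chaf1b*, the partner of *Chaf1a* in the assembly complex CAF-1, and *Slbp*, which binds histone mRNA, differed by −0.08 (95% interval −0.44 to 0.29) and 0.03 (−1.25 to 1.31). For fork protection and repair, *Tipin* and *Rad51ap1* were at −0.66 and −0.82 and *Clspn* and *Brca1* at 0.02 and 0.19. On their other probes *Clspn* and *Brca1* were at −0.48 and −0.61, so their sign depended on the probe. *Rad51ap1* stood at 7.11, 6.65 and 6.60 in *Wnt4*hi and 8.43, 6.67 and 7.73 in *Wnt4*low. *Wnt4*low replicate 3 lay with *Wnt4*hi and 0 of 3 *Wnt4*hi arrays were well above background. The mean of *Wnt4*low was at least 1.21-fold above the bound for *Wnt4*hi, but the arrays overlapped and the gene was not past the threshold (adjusted p = 0.623).

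On the probes used, 2 of the E2F factors themselves were lower and 2 higher, and 0 were past the threshold. The activator *E2f1* stood at 9.84, 10.68 and 10.24 in *Wnt4*hi and 11.04, 10.04 and 10.86 in *Wnt4*low, with overlap (−0.39, SE 0.33, adjusted p = 0.779). The activator *E2f2* was at 0.21 (95% interval −1.42 to 1.83), and the repressors *E2f7* and *E2f8* were at 0.05 and −0.22. Other probes of *E2f2* and *E2f7* were at −0.10 and −0.67. That of *E2f7* was well above background on 0 *Wnt4*hi and 1 *Wnt4*low arrays, and its bound gives no direction. *Lig1*, *Clspn*, *Rpa3* and *E2f7*, whose differences lay between 0.02 and 0.05, changed sign under 2 or 3 of the 3 other scalings, and *Rfc2* under 1.

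The difference was not spread evenly over the arrays. Taken as deviations from each gene's mean over the 6 arrays, the median over the 54 genes was −0.13, −0.09 and −0.18 in *Wnt4*hi, in the order of replicates 2, 3 and 4, and 0.23, −0.13 and 0.36 in *Wnt4*low, in the order 1, 3 and 4. *Wnt4*low replicate 3 thus lay with the *Wnt4*hi arrays and apart from the other two *Wnt4*low arrays. Of the 54 genes, 37 and 41 were above their own mean on *Wnt4*low replicates 1 and 4 and 17 on replicate 3, against 18, 22 and 22 on the *Wnt4*hi arrays. *Wnt4*low replicates 1 and 4 held the highest value of the 6 arrays for 14 and 18 genes, and replicate 3 for 2. *Rrm1* and *Pola2* were the genes past the threshold whose lowest *Wnt4*low value was not on replicate 3.

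**Figure D4:**
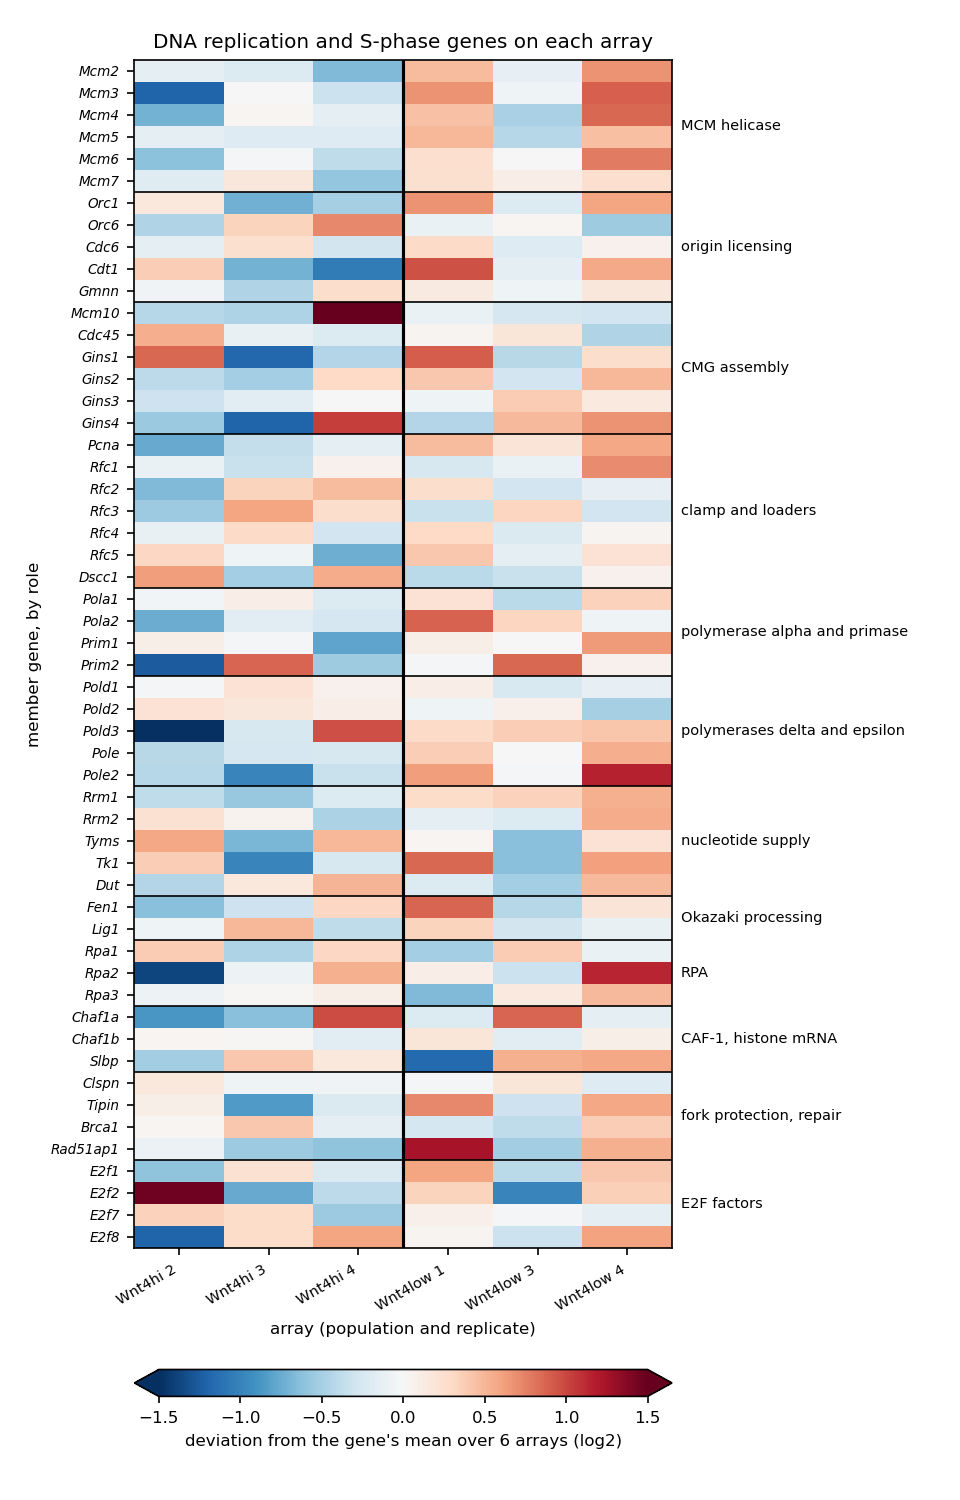
Deviation of each of the 54 genes (rows, by role) from its own mean over the 6 arrays (color, log2, red higher, values beyond 1.5 at the end color) on each array (columns). *Wnt4*low replicates 1 and 4 are mostly red, with 37 and 41 genes above their mean, and *Wnt4*low replicate 3, with 17, looks like the *Wnt4*hi columns, with 18, 22 and 22.

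Other cell cycle genes were counted from lists written beside the 54, against the 36.5% of all features that were lower and the 5.53% past the unadjusted threshold in that direction, or 39.7% and 7.80% of those with a symbol. Of 26 mitosis and spindle genes 24 were lower in *Wnt4*hi and 2 higher, with a median of −0.57. Past the unadjusted threshold were 8 of the lower and 0 of the higher genes. Their median deviations were −0.45, 0.02 and −0.24 in *Wnt4*hi and 0.45, −0.15 and 0.49 in *Wnt4*low. The highest were again *Wnt4*low replicates 1 and 4, with replicate 3 among the *Wnt4*hi arrays, an order that the next lists did not share. *Mki67*, which encodes the proliferation antigen Ki67, stood at 10.61, 9.89 and 11.41 against 11.96, 11.32 and 12.78 (−1.38, SE 0.50, adjusted p = 0.402), with *Wnt4*low replicate 3 again the lowest of its population and below *Wnt4*hi replicate 4. Of 10 cyclins and kinases of G1 and S phase, 8 were lower, 5 of them past the threshold, and 2 higher (median −0.67). Their median deviations were −0.46, −0.02 and −0.37 in *Wnt4*hi and 0.05, 0.19 and 0.69 in *Wnt4*low, so that replicate 3 lay above replicate 1 and above every *Wnt4*hi array. Of 54 further replication genes 38 were lower and 16 higher, with 10 of the lower and 0 of the higher past the threshold. Among the 10, *Mcm8* and *Dna2* have only a bound in *Wnt4*hi. The median fold change of the list was −0.43 as measured and −0.35 once the 4 genes that have only a bound were set to it. In *Wnt4*low their median deviations were 0.26, 0.01 and 0.42, and replicate 3 again lay above the *Wnt4*hi arrays, at −0.27, −0.10 and −0.07. The largest difference among these was that of *Timeless*, the partner of *Tipin* at the fork, at −2.31 (adjusted p = 0.081).

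Markers of other cells moved with the comparison and were set beside it. The sort did not select a cell type, and all 12 endothelial markers were lower in *Wnt4*hi, 10 of them past the adjusted threshold, with a median of −4.03, or −3.82 with 2 at their bound. Their summed intensity was 4276 to 5901 in *Wnt4*hi and 46066 to 82091 in *Wnt4*low, and *Tek* and *Tie1* were well above background on 0 *Wnt4*hi arrays. Mesenchyme and pericyte markers were lower for 9 of 9 genes (median −1.18, sums of 34226 to 66471 against 81722 to 109709) and leukocyte markers for 6 of 7 (median −0.87, sums of 8449 to 12922 against 14960 to 17480). Beta cell markers were higher for 11 of 12 (median 1.26, sums of 339629 to 349643 against 194624 to 302256), and markers of all endocrine cells for 6 of 6 (median 1.11). For acinar, Schwann, erythroid and duct markers the medians were −0.77, −0.77, −0.20 and 0.10, and for alpha and delta cells 2.02 and −0.56.

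Within *Wnt4*low, replicate 3 had the lowest sum of endothelial markers (46066) and the highest of beta cell markers (302256), next to its low values of the replication genes. Sums of leukocyte (14960), delta cell, duct and Schwann markers were also lowest on replicate 3. Those of all endocrine cells (72819), alpha cells, acinar (27142) and erythroid markers (12503) were highest there. Mesenchyme and pericyte markers did not follow the endothelial ones, with a sum of 89964 on replicate 3 and 81722 on replicate 1. Endothelial markers had a higher sum on replicate 1 (82091) than on replicate 4 (57150), whereas the replication genes had the lower median on replicate 1. The part of these cells in the difference of the replication genes was not tested.

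**Figure D5:**
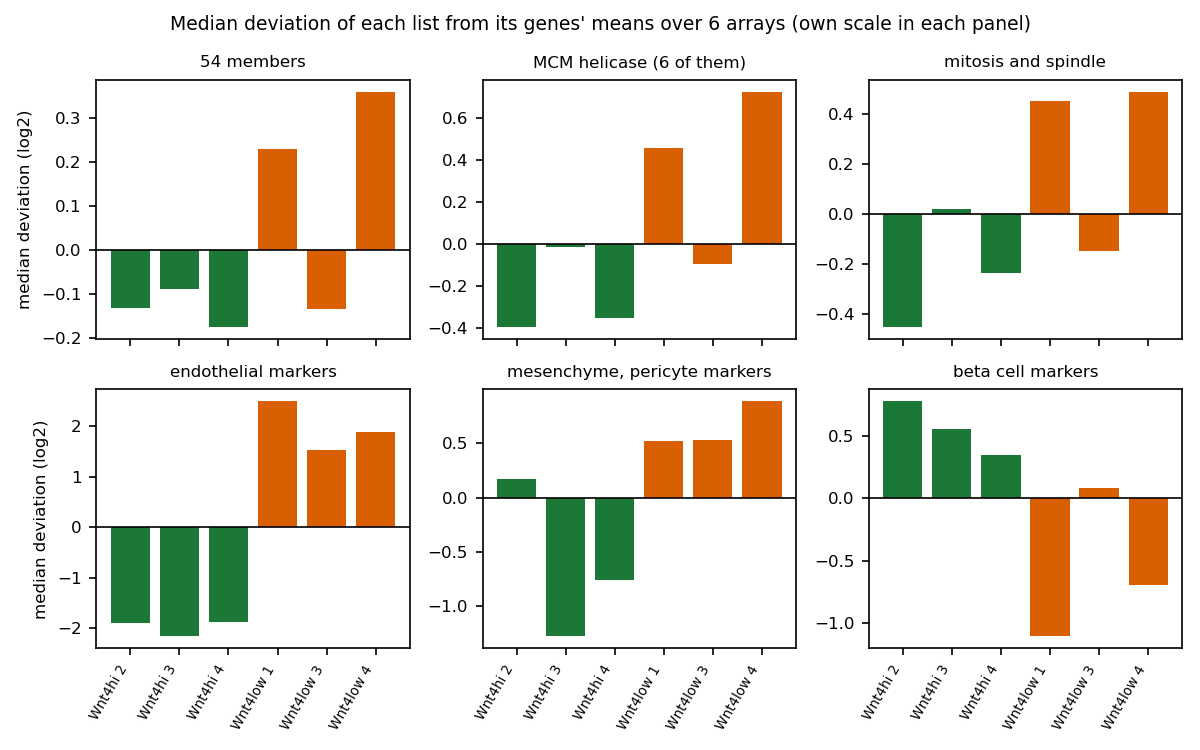
Median deviation of the genes of a list from their means over the 6 arrays (y axis, log2, own scale in each panel) on each array (x axis), for the 54 replication genes, the 6 MCM genes, mitotic genes and 3 marker lists, with *Wnt4*hi in green and *Wnt4*low in orange. The replication genes are at 0.23, −0.13 and 0.36 on the *Wnt4*low arrays, endothelial markers at 2.50, 1.53 and 1.88 and beta cell markers at −1.10, 0.09 and −0.69.

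The probe that stands for a gene bore on its value. Of the 54 genes 23 had more than 1 probe, and the brightest was used. The 24 other probes had a median of −0.62, or −0.33 with the 5 of them that have only a bound in *Wnt4*hi set to it, against −0.11 for the probes used in the same 23 genes. In measured values 18 of the 24 were lower than the probe used. Probes of 14 genes shared a sign, and those of 9 differed. Over the 78 probes of the 54 genes 54 were lower, 18 past the unadjusted threshold lower and 1 higher, that is 69.2%, 23.1% and 1.28%. Over all probes with a RefSeq symbol the shares were 42.5%, 8.21% and 5.38%, and over all 56605 probes 38.7%, 6.15% and 4.84%. At least 1 probe was past it in the lower direction for 16 of the 54 genes, a count that takes the best of several probes. For 5 of these, *Cdc6*, *Gins1*, *Orc1*, *Pole2* and *Rad51ap1*, the probe was well above background on 0 *Wnt4*hi arrays, and for *Gins1* its bound gave no lower value. With the probe of smallest p for every gene, 6.72% of all features were past it in that direction. Of the 54, 46 were well above background on all 6 arrays, and among these 28 were lower, 5 past the threshold, with a median of −0.15. The 5 are 10.9% of the 46, against 7.88% of all symbols well above background on 6 arrays, and the arrays did not overlap, lower, for 8.70% against 8.50%, shares that lie close together. Lower values were found for 60.9% of the 46 against 39.3%. The 8 genes without signal on every array were all lower in *Wnt4*hi, so the filter is tied to the difference and these shares do not measure it.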

How the data were processed

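Per the labels, RNA was amplified, labelled with Cy5 and read with Agilent Feature Extraction (version 9.1). The authors deposited unnormalized intensity values per spot and a table of normalized log2 values, used as an alternative. In that table, the column of *Wnt4*hi replicate 2 followed its own array poorly (correlation of deviations 0.271, against 0.843 to 0.872 for the other 5). It followed the array of *Wnt4*hi replicate 3 best. Whether the *Wnt4*hi columns of that table hold 3 separate arrays was not settled. Median intensities were corrected with normexp (offset 50), normalized by quantiles and compared over 3 against 3 arrays with lmFit and eBayes of limma (version 3.58.1, R 4.3.3), tested on simulated data, with Benjamini-Hochberg adjustment. Outlier spots (50 to 141 per array) were left out. The probe with the highest mean stood for a gene, and RefSeq transcripts of GRCm38.p6 gave names. Precision is limited by having 3 arrays per population, whose spread includes differences between pools. All arrays lay on 1 slide. The genes and lists were chosen with earlier results of these data known. Array values are given for the genes past the unadjusted threshold, the smallest p of each role and both extremes. Array design coordinates were not used. The alternatives changed background correction, normalization, dim-probe filter, outlier spots, probe, variance model, values (the authors' table), the block and the arrays included.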

Additional observations from a re-analysis of the deposited data

How the results depend on the processing

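Lower differences of all 8 genes past the unadjusted threshold kept their sign in every alternative that gave them a value, and *Pcna*, *Pole2* and *Rrm1* stayed past it in each. The count of 8 became 16 with the probe of smallest p and 4 to 13 with an array left out, and the count of higher genes past it, 0, became 1 with the mean of the probes, the probe of smallest p and the authors' table, and 0 to 1 with an array left out. The median of the 54 genes ranged from −0.45 to −0.18. None of the 54 passed limma's adjusted threshold in any alternative, while 4 to 17 passed the unadjusted one. Over all features 200 genes passed the adjusted threshold, 505 with the dim-probe filter, 371 with the probe of smallest p, 406 in the authors' table and 0 to 5 with an array left out. Only replicate numbers 3 and 4 are shared, and the deviations of their samples from the population means correlated at −0.03 and 0.16, where other pairs between the populations reached −0.23 to 0.18. Both arrays numbered 3 had pools of 4 pups and both numbered 4 had pools of 3. Whether a shared number marks the same pups is not stated, and correlations of deviations from means of 3 arrays cannot settle it. With the replicate number as a block, 0 features passed the adjusted threshold (2789 lower and 2056 higher the unadjusted one) and 7 of the 54 genes the unadjusted one, of which 3 (*Pcna*, *Pole2* and *Rrm1*) were among the 8. *Mcm2*, *Mcm3*, *Mcm6*, *Pola2* and *Pole* were then not past it, and *Cdt1*, *Gins1*, *Orc1* and *Tipin* were. The cause of these shifts was not tested.

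Other genes, none of them among the 8, changed sign. With the intensity scaled to the 75th percentile these were *Rfc2* (−0.014), *Lig1* (−0.057), *Rpa3* (−0.012), *Clspn* (−0.064) and *E2f7* (−0.039), with median centring *Lig1* (−0.087) and *E2f7* (−0.034), and with cyclic loess *Lig1* (−0.023), *Rpa3* (−0.038) and *Clspn* (−0.041). With the mean of the probes they were *Cdc45* (−0.37), *Rfc4* (0.092), *Lig1* (−0.37), *Clspn* (−0.23), *Brca1* (−0.21) and *E2f7* (−0.31), and with the probe of smallest p *Cdc45* (−0.89), *Rfc4* (0.26), *Lig1* (−0.77), *Clspn* (−0.48), *Brca1* (−0.61) and *E2f7* (−0.67). In the authors' table, which held 42 of the 54 genes, they were *Cdc45* (−0.29), *Rfc4* (0.060), *Tyms* (−0.055), *Lig1* (−0.090), *Rpa3* (−0.14), *Chaf1b* (0.016), *Clspn* (−0.24), *Brca1* (−0.077) and *E2f2* (−0.13). With the replicate block they were *Cdc6* (0.052), *Cdc45* (−0.021), *Rfc4* (0.086), *Fen1* (0.12), *Rpa1* (−0.21), *Rpa3* (−0.26), *Slbp* (−0.28), *Clspn* (−0.055), *E2f1* (0.0087), *E2f2* (−0.25), *E2f7* (−0.050) and *E2f8* (0.30). The *E2f7* values from the mean of the probes and the probe of smallest p rest on a probe well above background on 0 *Wnt4*hi and 1 *Wnt4*low arrays, whose bound gives no direction. With an array left out the ranges that crossed 0 were those of *Cdc45* (−0.078 to 0.30), *Pold3* (−1.40 to 0.0044), *Clspn* (−0.064 to 0.12), *E2f2* (−0.47 to 0.64), *E2f7* (−0.11 to 0.34), *E2f8* (−0.58 to 0.33), *Gmnn* (−0.33 to 0.024), *Rfc2* (−0.11 to 0.46), *Rfc3* (−0.042 to 0.53), *Lig1* (−0.21 to 0.24), *Slbp* (−0.54 to 0.33), *Cdc6* (−0.26 to 0.011), *Mcm10* (−0.23 to 0.77), *Rfc4* (−0.24 to 0.048), *Rrm2* (−0.28 to 0.10), *Dut* (−0.063 to 0.44), *Rpa3* (−0.30 to 0.27), *Rpa1* (−0.060 to 0.43), *Rfc1* (−0.43 to 0.045) and *Pola1* (−0.33 to 0.043).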
